A study of Mus musculus with 21 samples.

Results

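The nuclear genes of the respiratory chain were taken as a list of 58 genes for subunits of complexes I to IV, chosen by name, with earlier results of these data known. All 58 were found among the 21887 protein-coding genes of the nuclear mouse chromosomes. A gene was said to have a peak when a listed peak lay inside it or no further than 1 kb from either end, in the coordinates of the mouse build GRCm38 (mm10).

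The respiratory chain is a set of protein complexes in the inner mitochondrial membrane that pass electrons from NADH and succinate to oxygen and pump protons on the way. Most of its subunits are encoded in the nucleus and a few on the mitochondrial chromosome, so both genomes have to be expressed together. In skeletal muscle, differentiation is known to bring more mitochondria and an exchange of some cytochrome c oxidase subunits for muscle isoforms. PSME3, also called PA28γ, is a nuclear activator of the proteasome core, and H3K4me3 is a histone mark found at the starts of active genes.

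The cells were C2C12, an established line of mouse myoblasts, and no genetic change is named in the labels. Peaks were mapped by CUT&RUN, in which an antibody directs a nuclease to cut out the DNA around its target. Cycling myoblasts were grown in 20% FBS and frozen unfixed in 10% DMSO, with 3 replicates per antibody. Day 2 cells were kept for 48 h in 2% horse serum after confluency, and there was 1 library per antibody for each of 4 preparations: fresh or frozen, and native or crosslinked with 0.1% formaldehyde. The 4 preparations therefore differ in handling as well as being samples of day 2 cells, and all libraries come from 1 cell line. Fold enrichment is the ratio of the signal of a peak over the background estimated by the peak caller. It was compared between genes within a list and, for H3K4me3, between libraries as well. The lists hold no read counts, so depth is unknown. The cycling replicates held 1200, 776 and 3070 PSME3 peaks, and the day 2 PSME3 lists 18 to 186. H3K4me3 lists held 14372 to 40999 peaks. Of 6 myoblast genes looked up, such as Myod1 and Des, all 6 had H3K4me3 in the pooled cycling list, and of 6 genes of other cell types 1 did, Pecam1, at a fold enrichment of 2.99.

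In cycling myoblasts, H3K4me3 marked nearly all of the 58 respiratory chain genes. In the list called on the pooled replicates 57 of the 58 genes had a peak, against 61% of all protein-coding genes, and the replicate lists held 56, 57 and 57. The median of the highest fold enrichment per gene was 16.0 for the respiratory chain and 14.2 for all genes with a peak, and 44 of the 57 genes stood above that gene median. Their peaks were no wider than usual, with a median width of 2882 bp against 2878 bp. Of the 58, the gene that lacked a peak was Cox6a2, the heart and muscle form of a cytochrome c oxidase subunit. Of 11 further subunit genes that are not among the 58, 6 had a peak in the pooled list.

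Complex I, which takes electrons from NADH, gave 33 of the genes. Its 6 core genes had pooled H3K4me3 fold enrichments from 10.2 at Ndufv1, whose product holds the NADH-binding flavin, to 24.0 at Ndufs8, which encodes an iron-sulfur subunit. Ndufs3, Ndufv2, Ndufs1 and Ndufs7 lay between them. The peak over the start of Ndufs8 stood at 17.1, so its 24.0 came from another peak within 1 kb of the gene. The 27 accessory genes, whose products surround and stabilise the core, ranged from 8.77 at Ndufa13 to 22.8 at Ndufa2. In falling order the others were Ndufb2, Ndufb5, Ndufb3, Ndufb4, Ndufb10, Ndufa5, Ndufb9, Ndufb6, Ndufv3, Ndufs4, Ndufb7, Ndufa7, Ndufa12, Ndufa10, Ndufa8, Ndufa11, Ndufa3, Ndufc2, Ndufb8, Ndufab1, Ndufs5, Ndufa9, Ndufs6, Ndufa6 and Ndufc1.

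Complex II, which oxidises succinate, had fold enrichments from 14.4 at Sdhb, the iron-sulfur subunit, to 20.0 at Sdha, the flavoprotein, with the membrane anchors Sdhc and Sdhd between them. Complex III, which passes electrons to cytochrome c, ran from 14.4 at Cyc1, the gene of cytochrome c1, to 24.4 at Uqcrh, the gene of the hinge protein and the highest of all 58. The core protein genes Uqcrc1 and Uqcrc2, the Rieske iron-sulfur gene Uqcrfs1 and the small subunits Uqcrb, Uqcrq, Uqcr10 and Uqcr11 lay in that range. Complex IV, cytochrome c oxidase, had 11 of 12 genes marked. Cox6a1 was highest at 21.4, followed by Cox7a2, Cox5a, Cox4i1, Cox6b1, Cox7c, Cox5b, Cox7b, Cox6c and Cox8a at 12.5, and then, far below, Cox7a1 at 2.77.

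**Figure D1:**
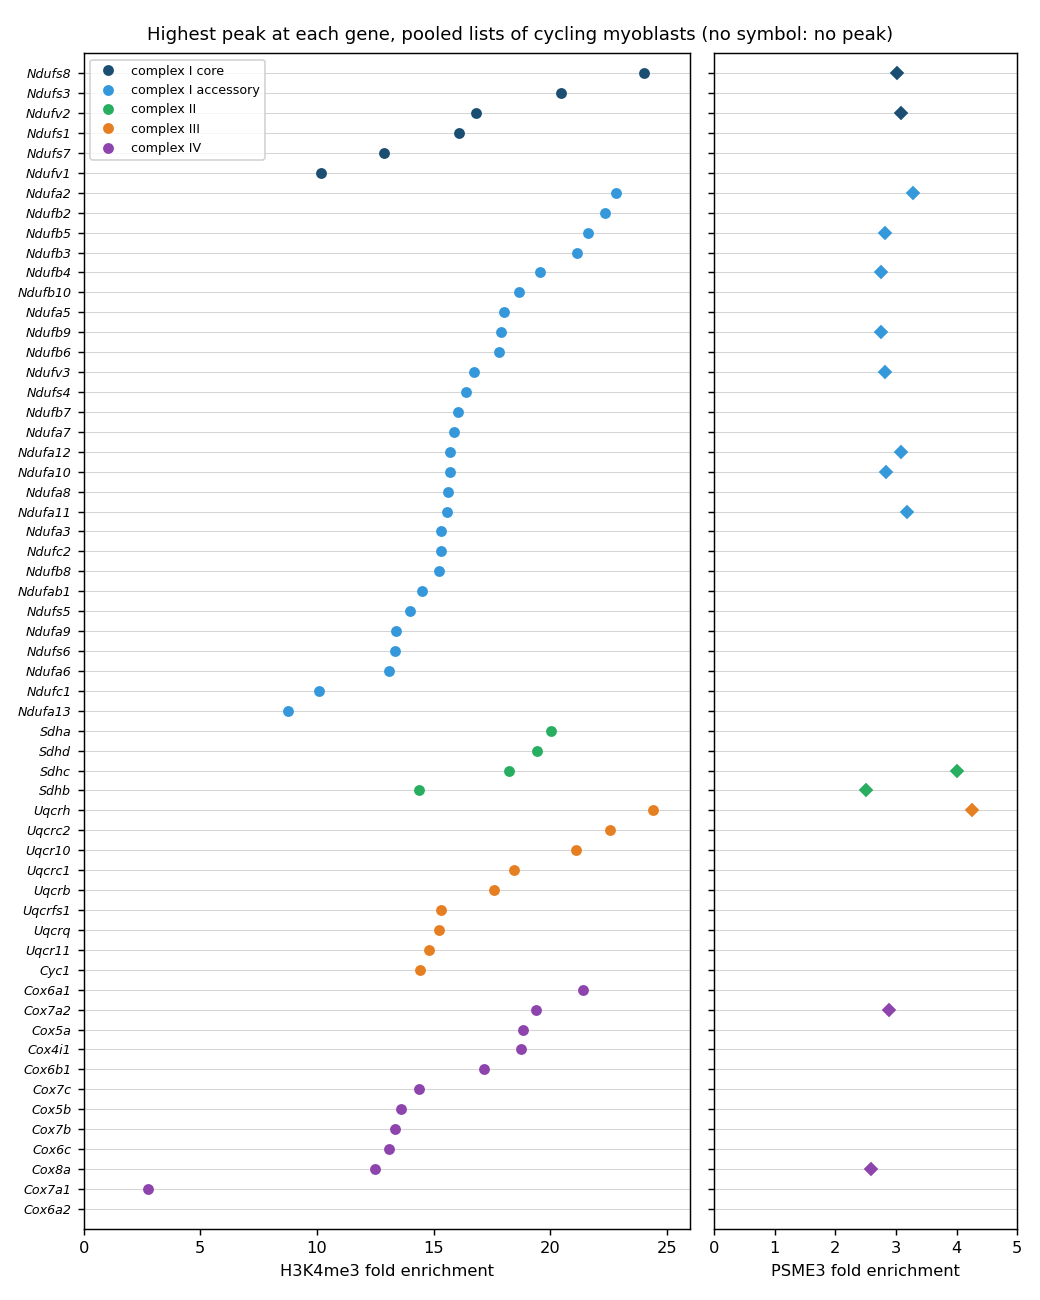
Highest fold enrichment of H3K4me3 (left, circles) and PSME3 (right, diamonds) at each of the 58 genes in the pooled cycling lists, grouped by complex. Nearly all genes carry H3K4me3 above 8, Cox7a1 stands at 2.77, Cox6a2 has no peak, and 15 genes have a PSME3 peak between 2.51 and 4.26.

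PSME3 was found at 15 of the 58 genes in the pooled cycling list, or 25.9%, beside 21.9% of all protein-coding genes. Among the 13346 genes with a pooled H3K4me3 peak, 35.6% had PSME3, and all 15 genes were among the 57 with that mark. The 15 were Ndufs8 and Ndufv2 of the complex I core, Ndufa2, Ndufa10, Ndufa11, Ndufa12, Ndufb4, Ndufb5, Ndufb9 and Ndufv3 of its accessory part, Sdhb and Sdhc of complex II, Uqcrh of complex III, and Cox7a2 and Cox8a of complex IV. Within 1 kb of a listed gene start, PSME3 was present at 12 of 47 genes, beside 18.2% of all genes with a listed start and 32.1% of those that also had H3K4me3 there.

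The promoter windows of 4 genes with some of the clearest PSME3 peaks are shown here, since the peaks lay on or beside them, together with the starts of Cox7a2 and its muscle counterpart Cox7a1, which differed widely in H3K4me3. Each window runs from 250 bases before to 50 bases after the gene start, 5′ to 3′ along the gene, and was taken from RefSeq for GRCm38.p6, which held a window for 47 of the 58 genes. Capitals mark matches, on either strand, to the letters TGCGCA or CGCATGCG (NRF1), CCGGAAG (ETS factors such as GABPA), AGATGGC (YY1), GGGCGG (GC box), CCAAT (NF-Y), CAGCTG (E-box of myogenic factors) and TAAAAATA (a form of the MEF2 site).
Uqcrh, chr4:116075021-116075320, minus strand: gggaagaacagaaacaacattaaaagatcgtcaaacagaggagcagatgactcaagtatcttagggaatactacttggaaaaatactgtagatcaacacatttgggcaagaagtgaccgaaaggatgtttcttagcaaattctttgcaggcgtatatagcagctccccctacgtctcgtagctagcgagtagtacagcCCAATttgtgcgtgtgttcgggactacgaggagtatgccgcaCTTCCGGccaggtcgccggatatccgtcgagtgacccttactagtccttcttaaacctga
Ndufs8, chr19:3912725-3913024, minus strand: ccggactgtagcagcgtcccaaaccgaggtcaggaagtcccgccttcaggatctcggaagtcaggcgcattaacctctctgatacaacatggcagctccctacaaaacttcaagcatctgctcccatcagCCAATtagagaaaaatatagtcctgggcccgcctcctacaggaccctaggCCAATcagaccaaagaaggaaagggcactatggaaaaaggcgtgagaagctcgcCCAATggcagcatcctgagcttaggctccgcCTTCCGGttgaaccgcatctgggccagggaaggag
Ndufa11, chr17:56717512-56717811, plus strand: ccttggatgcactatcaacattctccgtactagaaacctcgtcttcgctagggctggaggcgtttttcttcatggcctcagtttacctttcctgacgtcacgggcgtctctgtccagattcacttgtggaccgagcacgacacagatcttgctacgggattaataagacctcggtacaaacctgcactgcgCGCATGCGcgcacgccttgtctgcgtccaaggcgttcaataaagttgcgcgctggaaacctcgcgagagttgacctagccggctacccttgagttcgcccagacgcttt
Ndufa12, chr10:94198785-94199084, plus strand: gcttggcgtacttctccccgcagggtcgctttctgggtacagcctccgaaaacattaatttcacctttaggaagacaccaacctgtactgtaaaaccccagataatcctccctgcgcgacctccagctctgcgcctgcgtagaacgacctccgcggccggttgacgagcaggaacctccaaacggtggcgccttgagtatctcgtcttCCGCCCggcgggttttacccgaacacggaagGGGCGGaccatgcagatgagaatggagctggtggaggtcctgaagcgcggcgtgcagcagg
Cox7a2, chr9:79759804-79760103, minus strand: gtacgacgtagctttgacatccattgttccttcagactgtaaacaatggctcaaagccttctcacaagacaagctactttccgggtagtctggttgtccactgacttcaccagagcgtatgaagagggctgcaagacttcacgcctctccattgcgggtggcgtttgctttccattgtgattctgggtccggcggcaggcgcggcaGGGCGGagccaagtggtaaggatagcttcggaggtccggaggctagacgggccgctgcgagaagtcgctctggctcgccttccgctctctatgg
Cox7a1, chr7:30183921-30184220, plus strand: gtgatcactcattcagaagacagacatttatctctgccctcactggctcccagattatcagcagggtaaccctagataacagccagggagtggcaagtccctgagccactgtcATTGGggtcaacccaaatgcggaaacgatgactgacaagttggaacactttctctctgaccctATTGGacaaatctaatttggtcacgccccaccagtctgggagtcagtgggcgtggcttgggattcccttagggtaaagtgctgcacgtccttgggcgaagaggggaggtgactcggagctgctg

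Uqcrh had the highest PSME3 fold enrichment of the 58 genes. Its pooled peak, at chr4:116074904-116075551, had a fold enrichment of 4.26 and covered the whole window printed above, and the replicate 3 list gave 5.07. The lists of replicates 1 and 2 held no PSME3 peak there. Lrrc41 lies within 1 kb, so the peak cannot be assigned to Uqcrh alone. The window holds a CCAAT match 52 bases before the start and an ETS match 10 bases before it.

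Ndufs8 and Ndufa11 were the 2 genes with PSME3 in more than 1 replicate list. For Ndufs8, fold enrichment was 4.23 in replicate 1, 3.26 in replicate 3 and 3.01 in the pooled list, where the peak lay at chr19:3912624-3913143. Its window holds 3 CCAAT matches and an ETS match, and Aldh3b1 lies within 1 kb. For Ndufa11, an accessory subunit gene, fold enrichment was 3.98 in replicate 2, 3.87 in replicate 3 and 3.18 in the pooled list. That peak, at chr17:56717057-56717644, ended before the gene began and covered 133 of the 300 window bases, with Vmac as the neighbour within 1 kb. No gene had PSME3 in all 3 replicate lists.

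Of the other strong genes, Sdhc, a membrane anchor of complex II, had a fold enrichment of 4.00 in the pooled list and 3.46 in replicate 3. Ndufa12 had 3.08 in the pooled list and 4.56 in replicate 2, and its peak at chr10:94198779-94199290 was centred on the start. Ndufv2 had 3.08 in the pooled list and 4.03 in replicate 3. Ndufa2 reached 3.28 and 4.15 in the same 2 lists.

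The remaining pooled peaks were weaker. Cox7a2, Ndufa10 and Ndufb5, the last of the 10 highest, had fold enrichments of 2.88, 2.83 and 2.82, and Ndufv3, Ndufb4, Cox8a and Sdhb followed down to 2.51, all 7 without a peak in any replicate list. Ndufb9 had 2.75 in the pooled list and 3.60 in replicate 3. Ndufs3 had a peak in replicate 3, at 3.61, but not in the pooled list. In all, the replicate lists held 1, 2 and 8 of the 58 genes, beside 4.56%, 3.6% and 13.4% of all genes. Of the 15 genes, 7 stood above the median fold enrichment of all genes with PSME3.

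**Figure D2:**
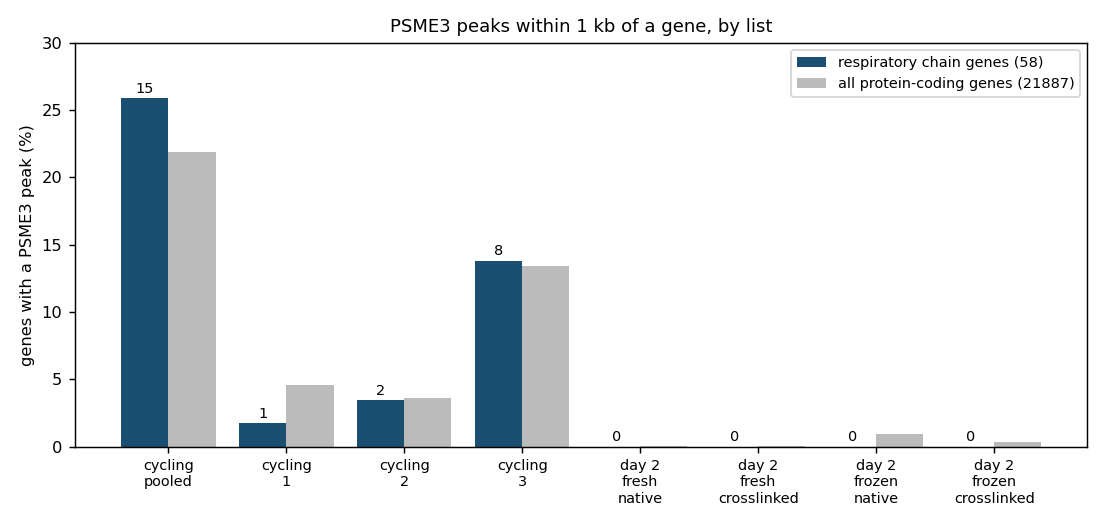
Percent of the 58 respiratory chain genes and of all 21887 protein-coding genes with a PSME3 peak, in each list, with the number of respiratory chain genes above its bar. The pooled cycling list holds 15 of the genes, the replicates 1, 2 and 8, and the day 2 lists 0.

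All 15 pooled PSME3 peaks lay entirely inside a pooled H3K4me3 peak, as did 87.9% of the 5812 peaks of that list, and of all genes with PSME3 99.1% had H3K4me3. Of the 15 peaks, 14 overlapped the gene itself. At the 12 genes with a listed start, the centre of the PSME3 peak lay between -412 and 147 bp from the start, where negative is upstream, with a median of -50.5 bp, against -7 bp over all genes. The H3K4me3 peaks of the respiratory chain were centred further into the gene, with a median of 346.5 bp past the start, against 309 bp over all genes, and 37 of 44, or 84.1%, were centred downstream, against 78.2%. Of the 15 peaks, 8 had a second protein-coding gene within 1 kb of the peak, so they cannot be assigned to the respiratory chain gene alone.

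**Figure D3:**
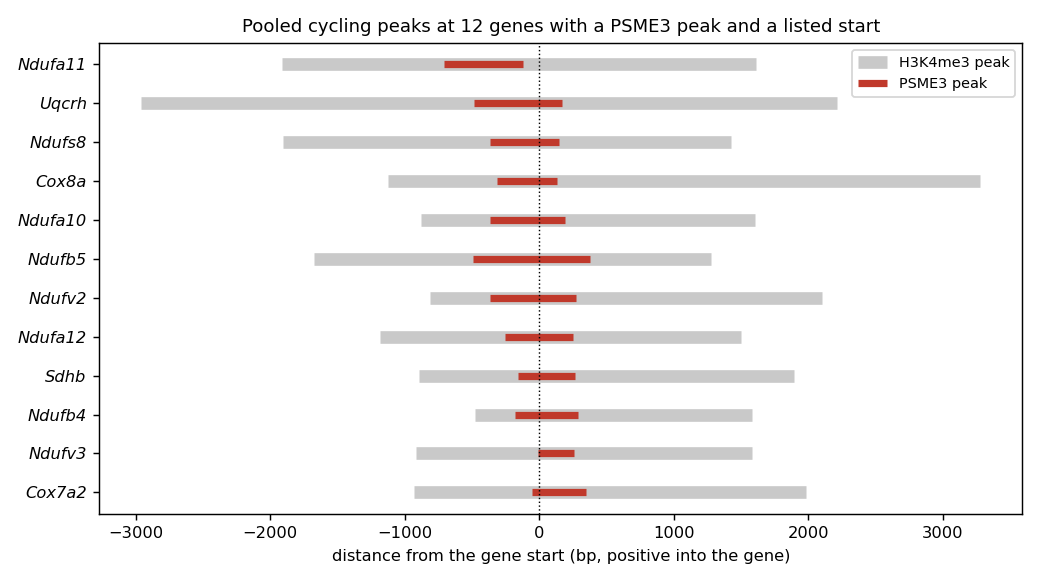
Extent of the pooled cycling PSME3 peak (red) and the H3K4me3 peak around it (grey) at the 12 genes with a listed start, in bp from that start, positive into the gene. Every red bar lies inside a grey bar, and that of Ndufa11 ends before the start.

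The genes with PSME3 mostly had strong H3K4me3. When all genes with pooled H3K4me3 were split by its fold enrichment into 4 groups of near equal size, the groups from lowest to highest held 2, 11, 21 and 23 respiratory chain genes, of which 0, 1, 6 and 8 had PSME3. Over all genes, 15.9%, 31.8%, 40.9% and 54% of these groups had it. The median H3K4me3 fold enrichment was 17.9 at the respiratory chain genes with PSME3 and 15.5 at those without, a log2 ratio of 0.21, beside 0.31 for all genes. In the replicate H3K4me3 lists the log2 ratio was 0.025, 0.12 and 0.083. These are descriptions over genes, with no test.

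The promoters of the respiratory chain held the NRF1 letters TGCGCA in 31.9% of 47 genes, beside 9.74% of all 21263 promoters and 14.5% of those with H3K4me3. Of the 12 genes with PSME3 at a listed start, 1 held them, Ndufb4. The ETS letters were present in 23.4% of genes, beside 11.6% and 18.4%, and in 4 of the 12. The YY1 letters were present in 17.0%, beside 6.01% and 6.98%, and in 0 of the 12.

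The GC box was present in 40.4% of the genes, beside 46.2% of all promoters and 67.2% of those with H3K4me3, and in 7 of the 12 genes with PSME3. The CCAAT letters were as frequent as elsewhere, in 38.3% of the genes, 38.2% of all promoters and 37.9% of those with H3K4me3. The E-box letters were in 8.51%, beside 15.6% of all promoters and 14.6% of those with H3K4me3, and the MEF2 letters in 0 of 47 genes, beside 2.17% and 0.975%. The letters CGCATGCG, the middle of the NRF1 palindrome, were added after the Ndufa11 sequence was seen, and were in 5 genes, or 10.6%, beside 2.52% of all promoters and 4.07% of those with H3K4me3. A match is a run of letters and not evidence of a bound factor.

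At day 2, PSME3 was found at none of the 58 genes in any of the 4 preparations. Few genes of any kind had it, and the frozen native list, handled like the cycling cells, held the most, at 0.909% of all genes. The other lists held 0.0366% to 0.361%. With so few peaks, absence at 58 genes is what the lists show for nearly every gene, and a weaker signal below the calling threshold was not detectable in them.

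H3K4me3 was present at nearly all of the 58 genes at day 2 too. The fresh crosslinked and frozen crosslinked lists had a peak at all 58 genes, beside 57.5% and 57.7% of all protein-coding genes. The fresh native and frozen native lists had one at 56, without Cox6a2 and Cox7a1, beside 54.5% and 56.9%. To compare the stages, the log2 fold enrichment of each gene was quantile normalized over the 7 H3K4me3 libraries and tested with limma. Of 14379 genes tested, 5.43% were called at an adjusted p of 0.05 or less, 405 higher and 376 lower at day 2. These counts depend on the fit: they were 40 and 368 without normalization between libraries and 175 and 204 without the fresh crosslinked library. None of the 58 respiratory chain genes was called, which does not show that they did not differ, since on simulated data the fit missed many changes larger than those fitted at these genes, Cox6a2 aside. At an unadjusted p under 0.05 there were 8 of them, 4 higher and 4 lower, or 13.8%, beside 22.2% of all genes tested.

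Cox6a2 had no peak in any cycling replicate, so its difference is set by the value given to a gene without a peak. The differences of the other 57 genes ran from -0.33 to 0.42 on the log2 scale, all smaller than 0.5 in size, and their 95% intervals lay within -1 and 1 except that of Cox7a1. The median over the 58 genes was 0.034, against 0.0015 for all genes. That median was not steady in sign or size: with 1 library left out it ran from -0.0071, without cycling replicate 1, to 0.061, without the frozen native library, and was 0.016 without the fresh crosslinked and 0.017 without the fresh native or the frozen crosslinked one. By complex, the medians were -0.072 for the complex I core, 0.049 for its accessory genes, -0.027 for complex II, -0.14 for complex III and 0.051 for complex IV.

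The lowest adjusted p was that of Cox4i1, the main form of a cytochrome c oxidase subunit. Cox4i1 has Emc8 and Gm27021 within 1 kb, so its highest H3K4me3 peak may not belong to it alone. Its normalized log2 values were 3.87, 3.82 and 3.84 in cycling replicates 1, 2 and 3, and 3.44, 3.65, 3.44 and 3.54 in the fresh crosslinked, fresh native, frozen crosslinked and frozen native day 2 libraries. The stages did not overlap, and the difference of -0.33 ± 0.080 (SE, 3 against 4 libraries) had a limma adjusted p of 0.0521. It passed the threshold when genes other than protein-coding ones were included (adjusted p = 0.0376 by limma) and when the fresh native library was left out (adjusted p = 0.0392 by limma). With no filter on genes the adjusted p was 0.120 by limma, and with covered bp in place of fold enrichment the difference turned to 0.035, with an adjusted p of 0.848 by limma.

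Ndufa11, which has Vmac within 1 kb, stood on the other side. Its normalized log2 values were 3.49, 3.97 and 3.87 in the cycling replicates and 4.20, 4.16, 4.21 and 4.07 at day 2 in the same order, so all day 2 values were higher. The difference was 0.39 ± 0.11 (SE, 3 against 4 libraries), with a limma adjusted p of 0.0949. Without cycling replicate 2 the adjusted p was 0.0420, and without cycling replicate 1, the lowest of the 7 values, the difference was 0.25 with an adjusted p of 0.108. The other genes with an unadjusted p under 0.05 were Ndufa13 at 0.42, Ndufa12 at 0.36 and Ndufc2 at 0.27, and, lower at day 2, Uqcrc1 at -0.32, Ndufb10 at -0.26 and Cox6a1 at -0.25. Without cycling replicate 1, Ndufa13 stood at 0.28 and Ndufa12 at 0.23, and without cycling replicate 3 Cox6a1 stood at -0.17. Without normalization between libraries the signs of Ndufa11, Ndufa12, Ndufa13 and Ndufc2 turned, and the median of all genes then stood at -0.61. With covered bp in place of fold enrichment the signs turned for Ndufa13 (-0.20), Ndufa12 (-0.21), Uqcrc1 (0.15), Ndufb10 (0.12) and Cox6a1 (0.012). Cox4i1 turned there too. Of the 8 genes, Ndufa11 and Ndufc2 kept their direction with covered bp, at smaller differences of 0.12 and 0.065.

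The muscle isoforms stood apart from their ubiquitous partners. Cox6a1 had H3K4me3 fold enrichments of 22.7, 11.9 and 34.7 in the cycling replicates and 9.66, 7.20, 13.0 and 19.0 in the fresh crosslinked, fresh native, frozen crosslinked and frozen native day 2 libraries. Cox6a2 had no peak in cycling cells or in the native day 2 libraries, and peaks of 2.68 and 2.76 in the fresh and frozen crosslinked ones. These peaks were 163 and 203 bp wide and also lie within 1 kb of Itgad.

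Cox7a2 had fold enrichments of 17.7, 11.4 and 24.2 in the cycling replicates and 9.49, 5.83, 11.6 and 18.9 at day 2 in that order. Cox7a1 had none in cycling replicate 1, 2.53 in replicate 2 and 3.23 in replicate 3, and at day 2 2.61 and 3.03 in the fresh and frozen crosslinked libraries and none in the native ones. Its peaks were thus seen at both stages, at a fraction of the level of Cox7a2. No test is given for Cox6a2, whose cycling values are all set by the value given to a gene without a peak. The limma difference of Cox7a1 was 0.33, with a 95% interval from -0.66 to 1.33, and was not called. Its size depends on how a gene without a peak is treated: it was 0.17 with such genes set to a fold enrichment of 2 in place of 1, and 0.81 when only genes with a peak in at least 3 libraries were fitted. With 1 library left out it ran from 0.11, without the frozen crosslinked one, to 0.63, without the fresh native one. Its sign turned without normalization between libraries (-0.26), where the median of all genes was -0.61, and with the native day 2 libraries alone (-0.24) and with the frozen native one alone (-0.30). With the crosslinked day 2 libraries alone, a fit added after the data were seen, the difference of Cox7a1 was 1.02 and was not called. That difference was 0.17 without the fresh crosslinked library, 0.19 without cycling replicate 1 and 0.59 without cycling replicate 3. Peaks of Cox6a2, and those of Cox7a1 at day 2, were seen only in crosslinked preparations, and the part of crosslinking in this was not tested.

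Cox8b, the muscle form of another cytochrome c oxidase subunit, is not among the 58 genes and was looked up with the further subunits. It had no peak in any cycling list or in the fresh native day 2 library, and fold enrichments of 3.23, 3.85 and 3.55 in the fresh crosslinked, frozen crosslinked and frozen native ones, so unlike Cox6a2 it had a peak in a native preparation.

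**Figure D4:**
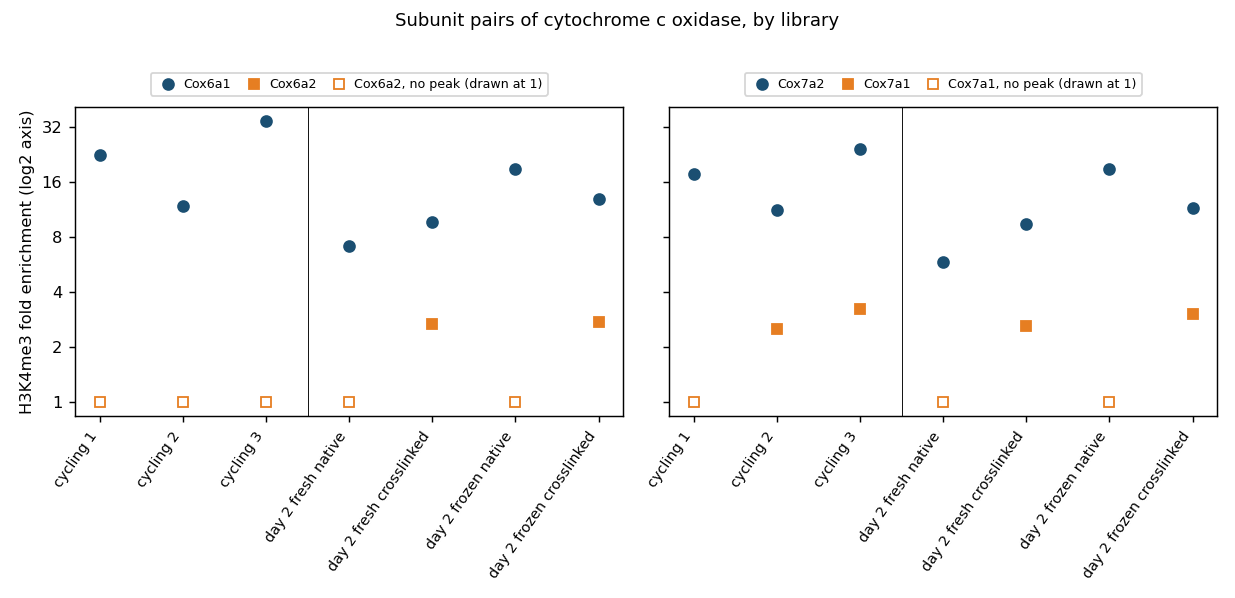
H3K4me3 fold enrichment, as deposited and on a log2 axis, of Cox6a1 and Cox6a2 (left) and of Cox7a2 and Cox7a1 (right) in the 3 cycling and 4 day 2 libraries, with open squares for no peak. In every library Cox6a1 and Cox7a2 lie above 5, and their muscle counterparts lie at 3.23 or lower.

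For genes of differentiating muscle, 10 of which were looked up, the deposited values carry the comparison. Of the 10, 6 had no peak in any cycling replicate and 7 had normalized log2 values under 0.25 in all of them, so that the size and p-value of their differences are set by the value given to a gene without a peak. Myog, a myogenic transcription factor gene, had no peak in the 3 cycling replicates and fold enrichments of 3.44, 2.96, 3.88 and 5.41 at day 2 in the order above. Ckm, the gene of muscle creatine kinase, had none in those replicates, a peak of 2.28 in the pooled cycling list, and 3.46, 3.17, 4.09 and 4.66 at day 2. Mef2c, a transcription factor gene, had a peak in all 7 libraries and was higher at day 2 by 0.53 ± 0.10 (SE, limma adjusted p = 0.0221). Of the 10, 9 were called higher at day 2, and Mymx was not. Mymx had fold enrichments of 5.30 and 2.54 in cycling replicates 1 and 2, none in replicate 3 and 14.7 in the pooled list. At day 2 it had 4.02, 3.39 and 4.76 in the fresh crosslinked, fresh native and frozen native libraries. The frozen crosslinked value was higher, and all 4 lay below the pooled value. The difference of Mymx was 1.89 ± 0.49 (SE, limma adjusted p = 0.0645).

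**Figure D5:**
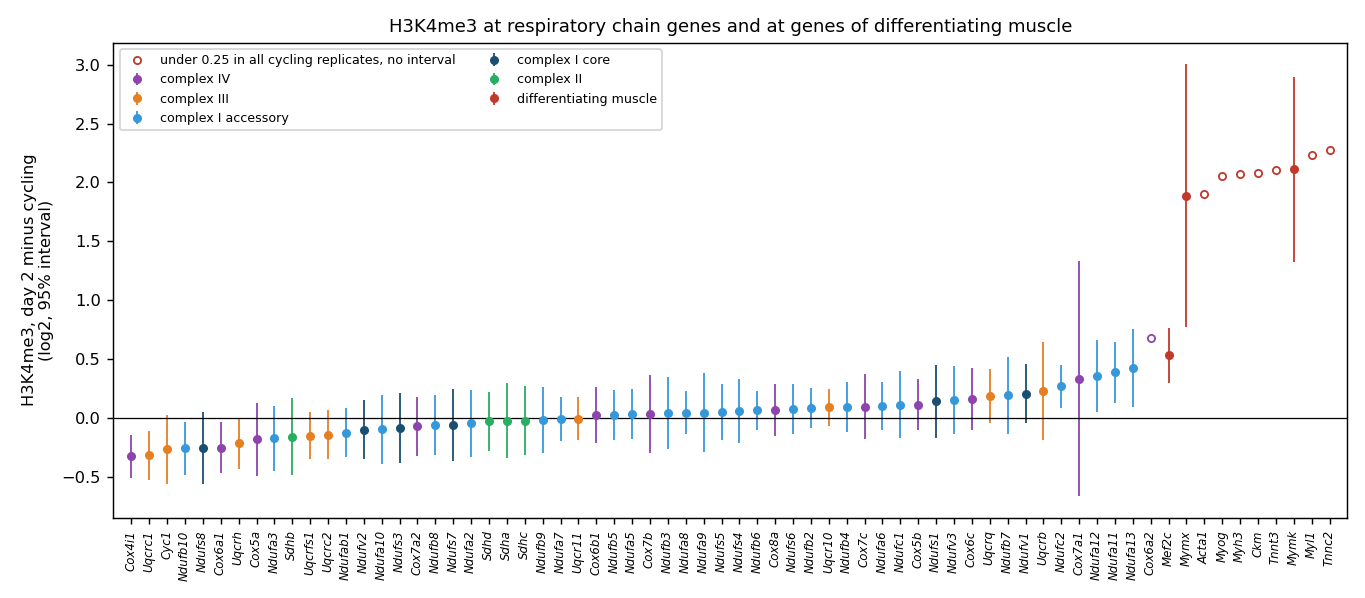
Difference in normalized log2 H3K4me3 fold enrichment, day 2 minus cycling, with its 95% interval, for the 58 respiratory chain genes by complex and for 10 genes of differentiating muscle (red). Open circles without an interval mark Cox6a2 and 7 muscle genes whose normalized log2 values were under 0.25 in all cycling replicates, and the other 57 respiratory chain genes lie between -0.33 and 0.42.

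Other genes of the pathway were looked up in the same lists. Pooled PSME3 was present at 2 of 16 genes of ATP synthase, at 4 of 11 further subunit genes, at 16 of 43 assembly factors and at 8 of 11 transcription factors and coactivators of mitochondrial genes, beside the 21.9% of all genes and 35.6% of those with H3K4me3 given above. The shares of the further subunits and assembly factors lie near the second of these. The last group included Tfb1m at 3.80, Esrra, a nuclear receptor gene, at 3.19, Nrf1 at 2.72 and Ppargc1a, the gene of the coactivator PGC-1α, at 2.99. Of these, Esrra had PSME3 in 3 replicate lists, Tfb1m in 2, Nrf1 in 1 and Ppargc1a in 0. Among the assembly factors Coa7 had 4.13, with PSME3 in 2 replicate lists, and Cox20 3.88, with PSME3 in 3. At day 2 none of these genes had PSME3 in the frozen native list. By limma, 1 of the 43 assembly factors was called, beside 5.43% of all genes tested. It was Cox20, higher at day 2 by 0.35 ± 0.073 (SE, adjusted p = 0.0293). Of the 16 ATP synthase genes, the 8 further subunits tested and the 11 transcription factors and coactivators 0 were called. At an unadjusted p under 0.05 there were 9 of the assembly factors and 2, 2 and 0 of the other lists in that order, beside 22.2% of all genes tested.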

How the data were processed

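The members, gene lists and tests were chosen with earlier results of these data known. Of the 21 libraries, the 14 with a peak list were analysed, with the 2 lists called on pooled cycling replicates. The 7 IgG libraries, RNA sequencing and proteomics were not analysed here. Per the submitters' processing notes, the authors used Trim Galore, Bowtie2 and MACS2 with mm10, and versions and options are not given in the sources used here. The deposited lists have no header and follow the broad peak layout of MACS2: each peak carries a fold enrichment (a ratio over the caller's background) and, on the −log10 scale, the p-value and q-value that the authors' run gave it. The largest q-value listed was 0.0987. No read numbers are held, so depth and counting error are unknown, and a deeper library can list weaker sites.

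Genes, their positions and promoter windows came from RefSeq tables of GRCm38.p6. A gene took the highest fold enrichment among peaks within 1 kb of its span. For H3K4me3, genes with a peak in at least 1 of the 7 libraries were kept, a gene without a peak was set to 1, and log2 values were quantile normalized and fitted with limma 3.58.1 in R 4.3.3 (trend, robust, Benjamini-Hochberg adjustment over all genes tested, two-sided), 3 cycling against 4 day 2 libraries. The fit was tested on simulated data. No test was made on PSME3, of which the day 2 lists hold few peaks. Python 3.11.15, numpy 2.4.6, pandas 2.3.3 and matplotlib 3.10.9 were used for the rest.

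All 58 genes were named once. Described in full were the 10 with the highest pooled PSME3 fold enrichment, those with PSME3 in at least 2 replicate lists or at day 2, those without pooled H3K4me3, both isoform pairs and those passing the limma test. Since none passed, those with an unadjusted p under 0.05 were named after their values were seen. Alternatives were q-values of at most 0.05 and 0.01, windows of 0 and 3 kb, the peak centre, the gene start, agreement between replicate lists, covered bp, no normalization, other filters and each library left out. The crosslinked libraries alone were added after the data were seen.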

Additional observations from a re-analysis of the deposited data

Results flagged for a closer look

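In Dixon's test over the 4 day 2 H3K4me3 libraries, which are 4 preparations and not repeats of 1, a library stood apart from the other 3 at 5 of 62 genes, the 58 respiratory chain genes and 4 others named in the text. Chance gives such a gap in about 1 in 20 groups. In normalized log2 fold enrichment, Ndufs8 was at 3.57 in the fresh native library and between 4.04 and 4.10 in the others. Sdhb was at 3.06 in the frozen crosslinked library, below 3.50 to 3.56, and Ndufab1 was at 3.45 there, above 3.23 to 3.26. Ndufb9 was at 3.68 in the frozen native library, below 4.10 to 4.16. Mef2c was at 2.93 in the fresh crosslinked library, below 3.10 to 3.13. Each of the 4 libraries stood apart at 1 or 2 of these genes.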

How the results depend on the processing

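No paired analysis was possible because each day 2 preparation has 1 library per antibody and no label pairs it with a cycling replicate. The count of 57 genes with pooled H3K4me3 and the share of PSME3 peaks that overlap H3K4me3 kept within 1.5 times of their values under all alternatives run. The count of 15 genes with pooled PSME3 fell to 7 at a q-value of at most 0.01, to 8 when a peak also had to be in at least 1 replicate list and to 2 when it had to be in at least 2. When the peak had to be in at least 1 of only 2 replicate lists it was 3 to 8, against 8 with all 3 lists: 8 without replicate 1, 7 without replicate 2 and 3 without replicate 3. The log2 ratio of H3K4me3 at genes with and without PSME3 was 0.025, 0.12 and 0.083 in the replicates, against 0.21 pooled.

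The 405 genes called higher and 376 lower at day 2 became 175 to 351 and 202 to 310 when 1 library was left out. The higher count was 175 without the fresh crosslinked, 181 without the frozen crosslinked, 215 without cycling replicate 3 and 243 without the frozen native library, and the lower count 204, 206, 202 and 297 in that order. It was 263 with covered bp, 40 without normalization and 626 with a peak in at least 3 libraries, where 368 and 482 were lower without normalization and with that filter. Counts of higher and lower were 99 and 106 with the frozen day 2 libraries alone, 162 and 207 with the crosslinked ones, 0 and 12 with the native ones and 0 and 0 with the frozen native one, whose lone sample is assumed to vary like the cycling group.

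Of the respiratory chain genes, 0 to 3 were called when 1 library was left out: Ndufa11, Ndufa12 and Ndufa13 without cycling replicate 2, and Cox4i1 and Ndufc2 without the fresh native library. Ndufa11 was also called, as 1 gene, with the filter of 3 libraries and with no filter, and Cox4i1, as 1 gene, with all genes of the table. With covered bp the signs turned for Cox6a1 (0.012), Cox7a2 (0.15), Cox4i1 (0.035), Uqcrc1 (0.15), Ndufa13 (-0.20), Ndufa12 (-0.21) and Ndufb10 (0.12). Without normalization they turned for Cox7a1 (-0.26), Ndufa11 (-0.23), Ndufc2 (-0.35), Ndufa13 (-0.23) and Ndufa12 (-0.26). Cox7a2 ran from -0.12 to 0.020 when 1 library was left out, turning to 0.020 without the fresh native library, and turned to 0.084 with the frozen native one alone and 0.031 with the frozen ones, and Cox7a1 to -0.30 with the frozen native one alone and -0.24 with the native ones. None of these turned values was called, and the cause was not tested. Unknown depth limits every count of peaks.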

Other observations

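The respiratory chain subunits encoded on the mitochondrial chromosome gave a different picture. PSME3 lists held 2 peaks there in the pooled cycling list, 0, 0 and 5 in the replicates, and 2 in each of the 4 day 2 lists. Fold enrichment was low, from 1.12 to 1.68, and highest in the frozen native day 2 list, where the 2 peaks covered ND1, ND2 and COX1, and ND4, ND5, ND6 and CYTB. H3K4me3 lists held 0 peaks there in cycling cells and in the frozen day 2 libraries, and 4 in each fresh day 2 library, although mitochondrial DNA carries no histones. The IgG libraries, which would give the background there, were not analysed here.

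Of the 58 nuclear genes, 34 had another protein-coding gene within 1 kb, and 10 of these had pooled PSME3, beside 5 of the 24 without such a neighbour. The same split over all protein-coding genes was not made, so it is unknown whether these counts differ from those of other genes.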
